A study of Rattus norvegicus with 46 samples.

Results

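The Z-disc of skeletal muscle was followed through 7 of its structural genes: Actn2, Actn3, Ldb3, Myoz1, Myoz2, Pdlim3 and Ky. They were chosen by name with earlier results of these data known, so their counts beside those of all genes are no independent test. The platform annotation gave 1 probe set for each of the 7, so no choice between probe sets was needed. All 7 were among the 9289 genes tested. The samples are proximal gastrocnemius muscles of 23 female Sprague-Dawley rats in an experimental intensive care model, 2 legs per rat, on 46 arrays. All 6 groups share isoflurane anaesthesia, mechanical ventilation and paralysis by α-cobrotoxin, which occupies the acetylcholine receptors of the endplate. In each rat a lever turned the left ankle, with 13.3 cycles in each minute, over 6 h in rats of the shortest duration and 12 h daily in all others, and the opposite leg was left unloaded. Loaded and unloaded legs came from 13 rats kept for 6 h to 4 d, 4 rats kept for 5 to 8 d and 6 rats kept for 9 to 14 d. Each window pools rats of different durations, ages are not given in the sources used here, and untreated rats were not analysed here, so a change with time is a change against rats already paralysed for 6 h to 4 d.

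The Z-disc is the protein plate at each end of a sarcomere, where actin filaments of opposite polarity and the giant protein titin are anchored. Its crosslinkers are the α-actinins, Actn2, which is not confined to fast fibres, and Actn3, which is made in fast fibres. Ldb3 (also called Cypher or ZASP) and Pdlim3 (ALP) carry PDZ and LIM domains and bind α-actinin. The calsarcins Myoz1, of fast fibres, and Myoz2, of slow fibres and heart, tie the phosphatase calcineurin to α-actinin. Ky, named after the kyphoscoliotic mouse that lacks it, is a muscle transglutaminase-like protein that binds filamin C.

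The values are log2 expression values, so a difference of 1 is a doubling, and the medians of the arrays lay between 6.07 and 6.20. Actn2, Actn3, Ldb3, Myoz1 and Pdlim3 exceeded the median of their own array on all 46 arrays, Myoz2 on 45 and Ky on 40. Ky lay below 6.07, the lowest array median, in 4 arrays of 5 to 8 d and 2 of 9 to 14 d, so the size of its low values is uncertain. Myh4, a fast myosin heavy chain, lay between 11.47 and 13.90 in every leg. Along the leading principal component, which held 42.4% of the variance, the other rats of 6 h to 4 d lay at -14.7 or below and the later windows at 18.1 or above, while both legs of rats 35 and 37 (6 h to 4 d) stood between them at 4.5 to 12.9. The description of each sample ends in a date-like code. Of the 5 codes only code 3 held all windows (4, 2 and 4 rats, rats 35 and 37 among the first), code 5 held the other 2 rats of each later window, and the remaining codes held the shortest window alone. Rats take the label number of the unloaded leg. The labels do not tie legs to rats, and pairs were inferred from neighbouring label numbers. In 6 rats (17, 19, 21, 23, 27 and 51) neither leg resembled its inferred partner more than another leg of the same window, so their pairing is uncertain.

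RefSeq promoters of the GRCr8 build, from 250 bases before to 50 after the transcript start, were given for 6 of the 7 genes, all but Pdlim3. Shown here are those of Ldb3, which fell strongly with time, and of the calsarcins Myoz1 and Myoz2, whose leg differences went opposite ways in most rats. They were searched on both strands for the E-box (CANNTG, bound by myogenic factors), the MCAT box (CATTCC), the MEF2 box and the CArG box (bound by serum response factor). Capitals mark matches, which are letters in a window and not shown to be bound in these muscles. The promoter of Ldb3 lies on the minus strand at chr16:9924630-9924929, that of Myoz1 on the plus strand at chr15:3693363-3693662, and that of Myoz2 on the minus strand at chr2:213852729-213853028.
Ldb3: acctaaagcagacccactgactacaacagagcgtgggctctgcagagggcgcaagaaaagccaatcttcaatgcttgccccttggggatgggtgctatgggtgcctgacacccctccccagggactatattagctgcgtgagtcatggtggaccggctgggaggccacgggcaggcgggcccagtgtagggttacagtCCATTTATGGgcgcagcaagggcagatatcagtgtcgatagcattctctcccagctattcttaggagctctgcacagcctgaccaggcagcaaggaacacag
Myoz1: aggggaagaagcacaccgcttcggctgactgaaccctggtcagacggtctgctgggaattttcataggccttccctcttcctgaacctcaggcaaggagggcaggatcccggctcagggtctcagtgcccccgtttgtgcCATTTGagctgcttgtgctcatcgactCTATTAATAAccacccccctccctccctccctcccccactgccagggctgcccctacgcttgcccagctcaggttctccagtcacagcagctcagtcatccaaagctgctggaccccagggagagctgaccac
Myoz2: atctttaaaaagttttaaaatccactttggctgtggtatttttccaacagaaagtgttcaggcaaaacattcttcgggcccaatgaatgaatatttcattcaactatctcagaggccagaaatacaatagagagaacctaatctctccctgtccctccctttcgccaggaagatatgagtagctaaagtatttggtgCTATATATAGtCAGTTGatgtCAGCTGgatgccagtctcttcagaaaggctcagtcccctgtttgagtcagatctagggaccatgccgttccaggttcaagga

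The Ldb3 window held a CArG box beginning 52 bases before the start, a motif found in 1.64% of 33469 promoters of this length. Myoz1 and Myoz2 each held a MEF2 box, found in 3.29% of promoters, 83 and 53 bases before the start. Beside it Myoz1 had 1 E-box, 110 bases before the start, and Myoz2 had 2, at 42 and 32 bases. Actn2 had 2 E-boxes and Ky 1, a motif found in 72.1% of promoters. None of the 6 windows held an MCAT box, found in 14.2%, and Actn3 had no match to any of the 4 motifs.

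With longer paralysis 4 of the 7 genes fell in both legs: Ldb3, Ky, Actn3 and Myoz1. Pdlim3 was higher, and Actn2 and Myoz2 did not pass the test in any comparison of windows. In unloaded legs at 9 to 14 d against 6 h to 4 d, 0 members rose, 4 fell and 3 did not pass (limma, Benjamini-Hochberg adjusted p under 0.05 over 9289 genes). Among all genes 45.6% passed, 28.7% higher and 16.9% lower, and the median difference was -0.90 for the 7 members and 0.07 for all genes. At 5 to 8 d 1 member rose, 4 fell and 2 did not pass, against 35.9% of all genes, 23.6% higher and 12.3% lower, with medians of -0.81 and 0.05. In loaded legs 1 rose, 4 fell and 2 did not pass in both windows. The shares of all genes there were 44.2% at 9 to 14 d (29% higher, 15.2% lower) and 39.0% at 5 to 8 d (26.9% higher, 12.0% lower). The loaded legs come from the same rats as the unloaded ones, and both later windows are set against the same 13 rats, so these 4 comparisons do not repeat one another independently. In whole muscle, fewer cells of a type and less RNA per cell cannot be told apart.

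**Figure D1:**
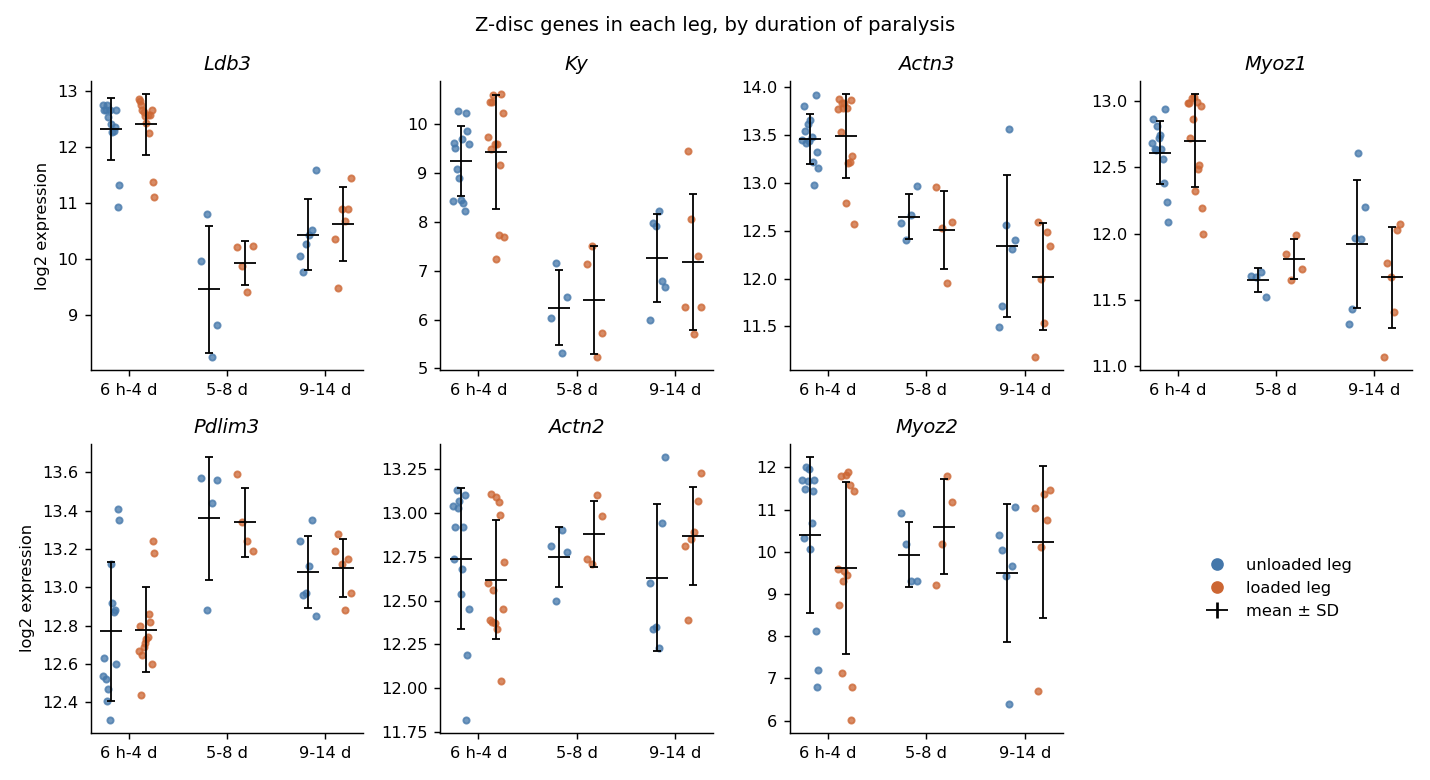
Log2 expression (y axis, a scale of its own for each gene) of the 7 Z-disc genes in the unloaded (blue) and loaded (orange) legs of each window (x axis). Points are single legs, and bars are the mean ± SD of 13, 4 or 6 rats. Ldb3, Ky, Actn3 and Myoz1 are lower in both later windows in both legs, Pdlim3 sits higher, and Myoz2 spreads over several log2 units in the 6 h to 4 d and 9 to 14 d groups.

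Ldb3, the PDZ-LIM scaffold of the Z-disc, lay in unloaded legs of the shortest window between 10.93 and 12.75 with a median of 12.54. In the 4 unloaded legs of 5 to 8 d it was 9.96 (rat 41), 10.79 (rat 43), 8.24 (rat 53) and 8.82 (rat 55). Over 9 to 14 d it ran from 9.76 to 11.59 with a median of 10.34. The 5 to 8 d legs were thus all below the shortest window, while the highest leg of 9 to 14 d overlapped only with rats 35 and 37, which at 10.93 and 11.32 were the lowest of their group. Ldb3 fell by 2.87 on the log2 scale at 5 to 8 d (SE 0.37, 7.33-fold, adjusted p = 6.01e-06) and by 1.89 at 9 to 14 d (SE 0.32, 3.72-fold, adjusted p = 5.58e-05). Loaded legs gave the same order of windows, with 12.40 ± 0.54 (SD, n = 13), 9.92 ± 0.39 (n = 4) and 10.62 ± 0.66 (n = 6). Ldb3 fell there by 2.47 (SE 0.30, adjusted p = 3.85e-06) at 5 to 8 d and by 1.78 (SE 0.26, adjusted p = 9.32e-06) at 9 to 14 d. Ordered by mean, both 6 h to 4 d groups of Ldb3 stood above the rest by more than the larger SD, and no other neighbours in the order differed by that much.

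Ky, the transglutaminase-like protein, was 8.23 to 10.27 (median 9.52) in unloaded legs of the shortest window. It was 6.04, 7.16, 5.31 and 6.47 in those of rats 41, 43, 53 and 55 and 5.98 to 8.23 (median 7.35) at 9 to 14 d. No unloaded leg of 5 to 8 d reached the lowest leg of the shortest window, and at 9 to 14 d rat 51 alone did, at 8.23, level with rat 31 of the shortest window. Ky fell by 3.01 at 5 to 8 d (SE 0.41, adjusted p = 1.18e-05) and by 1.99 at 9 to 14 d (SE 0.36, 3.98-fold, adjusted p = 1.04e-04). In loaded legs Ky fell by 3.03 (SE 0.65, adjusted p = 9.36e-04) and by 2.25 (SE 0.56, adjusted p = 0.0024), and the loaded groups, which were wider, overlapped in both comparisons. Only the step from unloaded 6 h to 4 d to unloaded 9 to 14 d exceeded the larger SD when the 6 group means of Ky were ordered.

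Actn3, the α-actinin of fast fibres, was 12.98 to 13.92 (median 13.45) in unloaded legs of the shortest window and 12.58, 12.40, 12.67 and 12.97 at 5 to 8 d. The groups did not overlap, although rat 55 at 12.97 lay next to rat 31 of the shortest window at 12.98. At 9 to 14 d it ran from 11.49 to 13.57 (median 12.35), and rat 51 alone, at 13.57, lay within the shortest window. Actn3 fell by 0.81 at 5 to 8 d (SE 0.23, 1.75-fold, adjusted p = 0.0090) and by 1.13 at 9 to 14 d (SE 0.20, 2.18-fold, adjusted p = 9.84e-05). In loaded legs the groups were 13.49 ± 0.44, 12.51 ± 0.41 and 12.02 ± 0.56 (SD, n = 13, 4 and 6), and Actn3 fell by 0.98 (SE 0.25, adjusted p = 0.0042) and by 1.47 (SE 0.22, 2.76-fold, adjusted p = 1.43e-05). The single step beyond the larger SD in the order of means lay between the 6 h to 4 d groups and unloaded 5 to 8 d.

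Myoz1, the calsarcin of fast fibres, was 12.09 to 12.94 (median 12.64) in unloaded legs of the shortest window and 11.68, 11.67, 11.71 and 11.52 at 5 to 8 d. The 5 to 8 d legs were all lower and close together. The 9 to 14 d legs spread from 11.32 to 12.61 (median 11.97), with rats 51 and 59 inside the range of the shortest window. Myoz1 fell by 0.96 (SE 0.17, 1.95-fold, adjusted p = 1.76e-04) at 5 to 8 d and by 0.69 (SE 0.15, 1.62-fold, adjusted p = 6.07e-04) at 9 to 14 d. The loaded legs of 5 to 8 d, at 11.85, 11.65, 11.99 and 11.73, were likewise below every loaded leg of the shortest window (12.00 to 13.03). Myoz1 fell there by 0.89 (SE 0.19, adjusted p = 7.69e-04) and, at 9 to 14 d, fell by 1.03 (SE 0.16, 2.04-fold, adjusted p = 2.61e-05). As for Ky, only the step from unloaded 6 h to 4 d to unloaded 9 to 14 d exceeded the larger SD in the order of the group means.

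Pdlim3, a second PDZ-LIM partner of α-actinin, went the other way. Its unloaded legs were at 12.31 to 13.41 (median 12.63) in the shortest window, at 13.57, 12.88, 13.44 and 13.56 at 5 to 8 d and at 12.85 to 13.35 (median 13.04) at 9 to 14 d. Rats 35 and 37 held the highest unloaded values of the shortest window, 13.41 and 13.35, and the groups overlapped. Pdlim3 rose at 5 to 8 d by 0.59 in unloaded legs (SE 0.18, 1.51-fold, adjusted p = 0.0112) and by 0.56 in loaded legs (SE 0.12, adjusted p = 6.80e-04). At 9 to 14 d it rose by 0.32 in loaded legs (SE 0.10, adjusted p = 0.0126), while the same size of difference in unloaded legs, 0.31 (SE 0.15), did not pass (adjusted p = 0.0961). Without rats 35 and 37 that comparison gave 0.42 (adjusted p = 0.0079). Without rat 55 the unloaded rise at 5 to 8 d was 0.53 and missed the threshold (adjusted p = 0.0570), and after cyclic loess normalization so did the loaded rise at 9 to 14 d, at 0.21 (adjusted p = 0.0711). In the order of means, the steps from loaded 5 to 8 d to loaded 9 to 14 d (0.24) and from unloaded 9 to 14 d to loaded 6 h to 4 d (0.30) exceeded the larger SD of the neighbours, and the other steps did not.

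Actn2, the α-actinin not confined to fast fibres, had group means between 12.62 and 12.88, and no step in their order exceeded the larger SD. Its unloaded legs lay at 11.82 to 13.13 (median 12.92) in the shortest window, at 12.81, 12.50, 12.90 and 12.78 at 5 to 8 d and at 12.23 to 13.32 (median 12.48) at 9 to 14 d, so all groups overlapped. The differences from the shortest window were 0.01 (95% interval -0.42 to 0.43) and -0.11 (-0.48 to 0.26) in unloaded legs. In loaded legs they were 0.26 (-0.09 to 0.62) and 0.25 (-0.06 to 0.55), and array quality weights put the former at 0.41 (adjusted p = 0.0298).

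Myoz2, the calsarcin of slow fibres, was the most variable member. Unloaded legs ran from 6.80 to 12.01 (median 11.44) in the shortest window, and loaded legs from 6.02 to 11.89 (median 9.54). At 5 to 8 d the unloaded legs were at 10.91, 10.18, 9.32 and 9.31 and the loaded legs at 9.22, 10.18, 11.80 and 11.19. At 9 to 14 d they ran from 6.39 to 11.06 (median 9.86) and from 6.70 to 11.47 (median 10.90). Every group overlapped every other, and no step in the order of means exceeded the larger SD. The differences from the shortest window were -0.47 (95% interval -2.30 to 1.36) and -0.90 (-2.48 to 0.67) in unloaded legs and 0.98 (-1.07 to 3.02) and 0.62 (-1.15 to 2.39) in loaded legs, intervals wide enough to hold a 4-fold change. Without rats 35 and 37, whose unloaded legs were at 6.80 and 7.21, the unloaded difference at 9 to 14 d was -1.52 (adjusted p = 0.0352). With the date code as a block it was 0.97 (adjusted p = 0.4617).

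**Figure D2:**
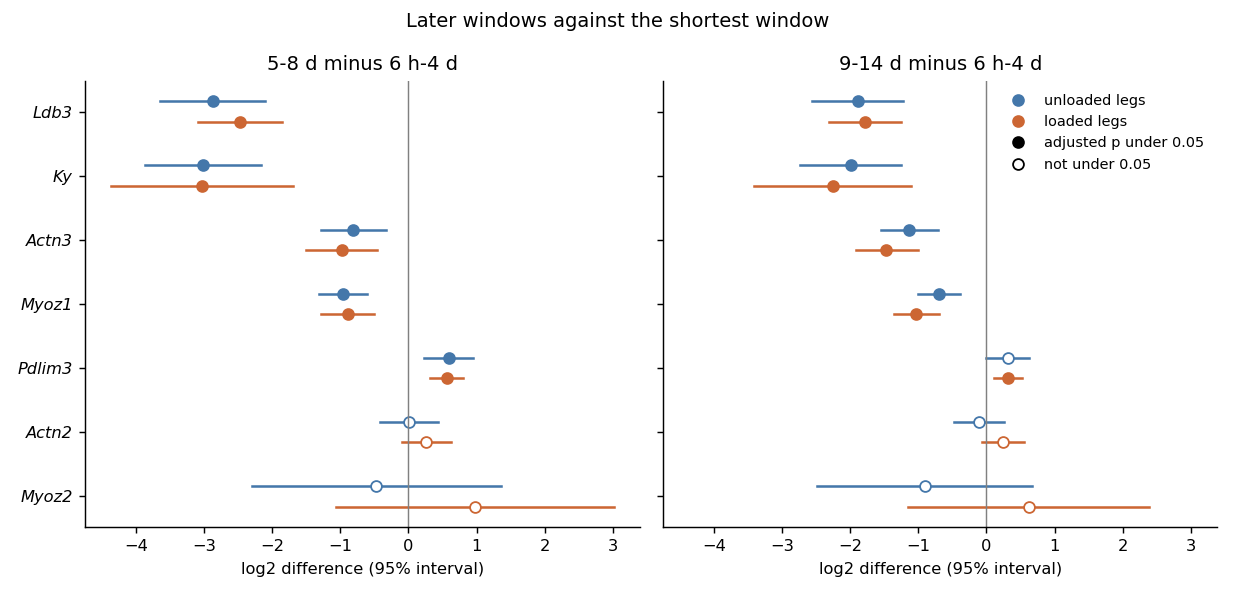
Log2 difference of the 5 to 8 d (left) and 9 to 14 d (right) windows from the 6 h to 4 d window (x axis) for each gene (y axis), in unloaded (blue) and loaded (orange) legs. Lines are 95% intervals and filled points have an adjusted p under 0.05. Ldb3, Ky, Actn3 and Myoz1 lie below 0 in all 4 comparisons with filled points, and the Myoz2 intervals cross 0 in all 4.

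Between the later windows 0 of 7 members passed in either leg, as against 0.226% of all genes in unloaded legs and 0.226% in loaded legs. Ldb3 was higher at 9 to 14 d than at 5 to 8 d by 0.98 in unloaded legs (95% interval 0.11 to 1.85, adjusted p = 0.2538) and by 0.69 in loaded legs (adjusted p = 0.3441). Ky was higher by 1.02 (0.05 to 1.98, adjusted p = 0.2914) and 0.77 (adjusted p = 0.6725). With only 4 and 6 rats, differences of this size were not resolved. The Ldb3 difference in unloaded legs was -0.25 within date code 3 (4 against 2 rats) and 2.52 within code 5 (2 against 2), and without rat 43 it was 1.43 (adjusted p = 0.0428).

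The date code moved with the windows, and only within code 3 could later windows be set against the shortest with the code held constant. In code 3, 4 rats of 9 to 14 d stood against 4 of the shortest window, rats 35 and 37 among the latter. There the unloaded legs differed by -1.69 for Ldb3, -1.95 for Ky, -1.01 for Actn3 and -0.58 for Myoz1, and the loaded legs by -1.58, -2.05, -1.41 and -0.94. Pdlim3 differed by 0.01 and 0.16 in the same rats, and Myoz2 by 0.61 and 0.85. At 5 to 8 d, with 2 rats against 4, the unloaded differences were -1.44 for Ldb3, -2.88 for Ky, -0.86 for Actn3 and -0.73 for Myoz1. In these few rats 1 member passed in unloaded and 2 in loaded legs at 9 to 14 d, and 0 at 5 to 8 d in either leg. A fit of all rats with the code as a block also ties the later windows to the shortest through code 3, so it is no separate check. In that fit Ldb3 passed in all 4 comparisons, falling by 1.30 (adjusted p = 0.0389) at 9 to 14 d and by 2.23 (adjusted p = 0.0085) at 5 to 8 d in unloaded legs. Actn3 then did not pass at 5 to 8 d (unloaded -0.77, adjusted p = 0.1722), Ky did not pass in loaded legs (-1.87 at 9 to 14 d, adjusted p = 0.1039), and Pdlim3 passed nowhere, with -0.02 in unloaded legs at 9 to 14 d. Myoz1 missed at 9 to 14 d in unloaded legs under the block (-0.53, adjusted p = 0.0672). Without rats 35 and 37 the unloaded differences at 9 to 14 d were -2.11 for Ldb3, -1.90 for Ky, -1.17 for Actn3 and -0.78 for Myoz1, and all 4 genes passed in all 4 comparisons.

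Some markers of fibres and of other cells also differed between the windows. Beside their counts stand the shares of all genes passing. These were 45.6% in unloaded legs at 9 to 14 d (28.7% higher, 16.9% lower) and 35.9% at 5 to 8 d (23.6% higher, 12.3% lower). In loaded legs at 9 to 14 d the share was 44.2% (29% higher, 15.2% lower). Of 10 measured fast fibre markers, 0 were higher and 5 lower in unloaded legs at 9 to 14 d (median -0.38), among them Mybpc2, a fast myosin-binding protein, by 1.98 (adjusted p = 7.06e-06), and Myh4 by 0.58 (adjusted p = 0.0412). The Myh4 call was lost in 13 of the 23 fits that left out a single rat (differences of -0.70 to -0.48) and with the date code as a block (-0.73, adjusted p = 0.1225). The mean of the 10 ran from 12.38 to 13.26 over the legs of the shortest window and from 12.18 to 12.80 at 9 to 14 d. Of 10 slow fibre markers 4 were lower (median -1.22), among them the slow myosin light chain Myl3, which fell by 2.77 (adjusted p = 0.0268), and slow myosin Myh7, which fell by 2.76 (adjusted p = 0.0149), both short of the threshold without rat 51 (-1.93 and -2.15, adjusted p = 0.1099 and 0.0588). With the date code as a block Myl3 differed by -0.46 (adjusted p = 0.8056) and Myh7 by -0.82 (adjusted p = 0.6210). The mean of the 10 spanned 7.05 to 12.20 and then 7.50 to 11.38. Of 9 macrophage markers 5 were higher (median 0.85), with means of 7.56 to 8.62 and then 7.90 to 10.13. At 5 to 8 d, where Ldb3 and Ky were lowest, 0 macrophage markers were higher and 1 lower (means 7.12 to 8.11), and 6 of 7 fibroblast markers were lower (means 7.54 to 7.90, against 7.87 to 9.73 in the shortest window). At 9 to 14 d 2 of 7 fibroblast, 1 of 2 endothelial and 1 of 5 adipocyte markers were lower, 1 of 4 nerve and Schwann cell markers was higher, and 0 of 3 smooth muscle markers passed. In the loaded legs at 9 to 14 d 7 of 10 fast fibre markers were lower, 0 of 10 slow fibre markers passed and 3 of 9 macrophage markers were higher. The part of these shifts in the results of the Z-disc genes was not tested.

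Passive loading left no member past the threshold. Over all 23 rats 0 of 7 passed, while 2.90% of all genes did. The differences, loaded minus unloaded leg, were 0.02 for Actn2 (95% interval -0.13 to 0.17), -0.09 for Actn3 (-0.33 to 0.15), 0.01 for Myoz1 (-0.12 to 0.15) and 0.00 for Pdlim3 (-0.10 to 0.11). For these 4 genes the interval of the mean over all 23 rats held no change beyond 0.33. It reached further for Ldb3, at 0.17 (-0.01 to 0.36, adjusted p = 0.3126, loaded leg higher in 15 of 23 rats), for Ky, at 0.11 (-0.31 to 0.52), and for Myoz2, at -0.13 (-1.04 to 0.78). Under array quality weights Ldb3 passed, at 0.26 (adjusted p = 0.0217). Within single windows the intervals were wider, for Actn3 -0.72 to 0.43 at 5 to 8 d and -0.78 to 0.15 at 9 to 14 d.

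Within each window the count was again 0 of 7. The share of all genes passing was 0% at 6 h to 4 d, 0% at 5 to 8 d and 0.269% at 9 to 14 d, although 1075 genes at 6 h to 4 d and 644 at 5 to 8 d had an unadjusted p under 0.05. The member with the smallest unadjusted p was Ldb3 at 5 to 8 d, 0.47 higher in the loaded leg (95% interval 0.02 to 0.92, adjusted p = 0.6859). Its loaded minus unloaded values there were 0.25 in rat 41, -0.93 in rat 43, 1.16 in rat 53 and 1.41 in rat 55, so rat 43 went against the other 3. Without rat 43 the difference was 0.94 and passed (adjusted p = 0.0319). At 9 to 14 d the loaded leg differed by -0.24 for Myoz1 (-0.50 to 0.01) and by 0.24 for Actn2 (-0.04 to 0.52), both short of the threshold. The difference in the effect of loading between windows was also tested, and 0 of 7 members passed at 9 to 14 d or 5 to 8 d against 6 h to 4 d, as did 0% and 0% of all genes (717 and 557 at an unadjusted p under 0.05). The largest of these was 1.52 for Myoz2 (-0.63 to 3.68), from -0.78 at 6 h to 4 d to 0.75 at 9 to 14 d. Between the same windows the effect differed by 0.36 for Actn2 (0.01 to 0.70) and by -0.33 for Myoz1 (-0.64 to -0.02). Their unadjusted intervals left out 0, but neither gene passed (adjusted p = 0.6346 for each).

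The legs of a single rat could differ widely. The SD of the leg difference over 23 rats was 2.34 for Myoz2, 1.01 for Ky, 0.59 for Actn3, 0.47 for Ldb3, 0.38 for Actn2, 0.34 for Myoz1 and 0.23 for Pdlim3. Rat 51 had Myoz2 at 6.39 in the unloaded leg and 11.36 in the loaded leg, a 31.5-fold difference, and rat 17 had 12.01 and 7.12, 29.6-fold the other way. Slow myosin Myh7 did the same in the same legs, from 5.71 to 10.83 in rat 51 and from 13.06 to 8.51 in rat 17. In rat 51 Ky went from 8.23 to 5.71, Actn3 from 13.57 to 11.54 and Myoz1 from 12.61 to 11.41, opposite to Myoz2. Rats 17 and 51 are among those of uncertain pairing. Among the other rats, Myoz2 went from 7.21 in the unloaded to 11.45 in the loaded leg of rat 37 (18.9-fold) and from 10.05 to 6.70 in rat 47 (10.1-fold). The loaded leg was the one with more Myoz2 in 13 rats, by only 0.0024 in rat 35 and 0.0035 in rat 43, and the one with less in 10.

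**Figure D3:**
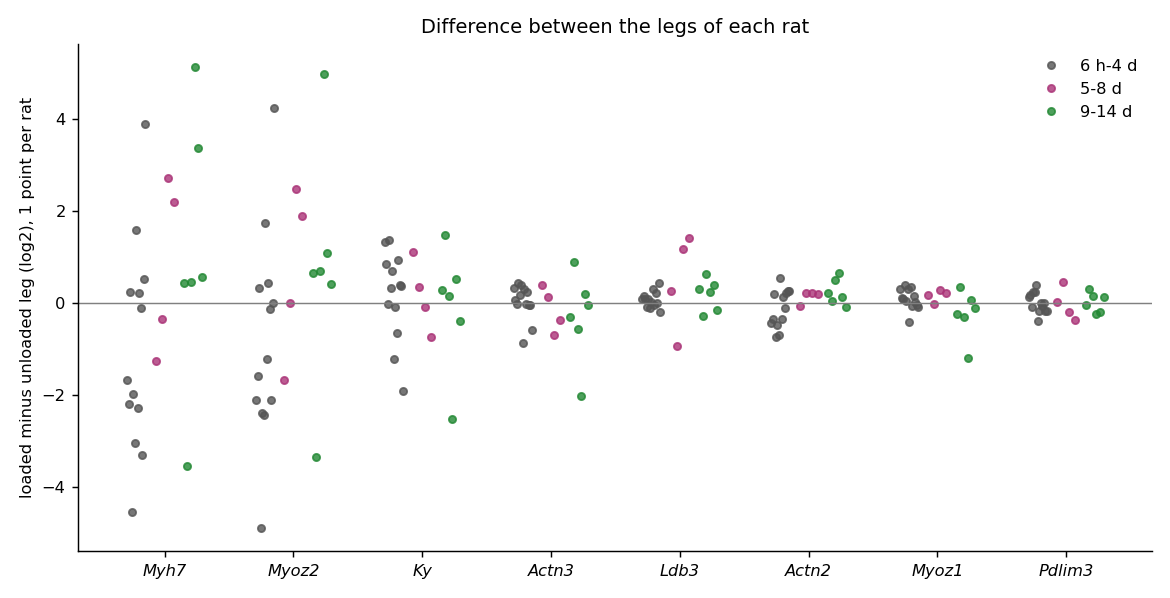
Loaded minus unloaded log2 value (y axis) of slow myosin Myh7 and the 7 Z-disc genes (x axis), 1 point per rat, coloured by window. Myh7 and Myoz2 reach from below -4 to about 5 in single rats, and Pdlim3 stays within 0.46 of 0.

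Across the 23 rats the leg differences of many pairs of members were related, some in the same and some in opposite directions. Of 35 relations computed, the 21 pairs of members and each member against Myh7 and Myh4, 26 had Benjamini-Hochberg adjusted permutation p-values under 0.05 for both Pearson's r and Spearman's rho. Pairs of other genes were not computed, so no share over all genes stands beside the 26. All points of a relation come from the same arrays. The closest was Myoz2 with Myh7 (r = 0.96, rho = 0.94, permutation p = 1e-05 for each, the smallest that 100000 resamples can give, adjusted 7.00e-05 and 1.75e-04). Their signs matched in 22 of 23 rats. It was 0.97 within 6 h to 4 d, 0.95 within 9 to 14 d, 0.98 in the 10 rats of code 3 and 0.95 without rats 17 and 51, the farthest from the median. Without the 6 rats of uncertain pairing it was 0.94. Those rats were picked because their legs were unlike over all genes. Leaving them out therefore also takes away large leg differences, such as those of Myoz2 in rats 17 and 51, and a smaller r without them does not test the pairing.

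Myoz2 went with Actn2 (r = 0.77, rho = 0.74, permutation p = 4.00e-05 and 1.10e-04, adjusted 1.56e-04 and 2.96e-04). That r was 0.69 without rats 17 and 21. Without the 6 rats of uncertain pairing it was 0.51 and did not pass (adjusted permutation p = 0.0845 for r and 0.0840 for rho). Myoz2 opposed Actn3, Ky and Myoz1. With Actn3 it gave r = -0.84 and rho = -0.86 (permutation p = 1e-05 for each, adjusted 7.00e-05 and 1.75e-04), and their legs differed in opposite directions in 20 of 23 rats. Without rats 47 and 51 r was -0.78, and without the 6 rats of uncertain pairing -0.81. With Ky it gave r = -0.86 and rho = -0.81 (permutation p = 1e-05 and 4.00e-05, adjusted 7.00e-05 and 1.75e-04), -0.80 without rats 17 and 51 and -0.85 without the 6 rats. The calsarcins opposed each other, Myoz1 with Myoz2 at r = -0.67 and rho = -0.63 (permutation p = 2.80e-04 and 0.0018, adjusted 6.53e-04 and 0.0035) and with opposite signs in 19 of 23 rats. That r was -0.51 without rats 23 and 51. Without the 6 rats it was -0.37 and did not pass (adjusted permutation p = 0.1956 for r and 0.1455 for rho).

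The α-actinins were opposed as well, Actn2 with Actn3 at r = -0.70 and rho = -0.81 (permutation p = 1.50e-04 and 3.00e-05, adjusted 4.37e-04 and 1.75e-04), again with opposite signs in 19 of 23 rats. Their r was -0.84 within 6 h to 4 d, -0.83 within 9 to 14 d, -0.86 in code 3 and -0.70 without rats 17 and 21. Without the 6 rats r was -0.55 and missed the threshold (adjusted permutation p = 0.0572), while rho passed (0.0098). Actn3 went with Ky (r = 0.85, rho = 0.82, permutation p = 1e-05 and 4.00e-05, adjusted 7.00e-05 and 1.75e-04) and with Myoz1 (r = 0.85, rho = 0.75, permutation p = 2.00e-05 and 1.10e-04, adjusted 1.00e-04 and 2.96e-04). The former was 0.74 without rats 47 and 51 and 0.74 without the 6 rats. The latter was smaller, 0.63 and 0.49, and did not pass without the 6 rats (adjusted permutation p = 0.0884 for r and 0.0838 for rho). Ldb3 passed with 1 member alone, Pdlim3 (r = -0.62, rho = -0.58, permutation p = 0.0013 and 0.0048, adjusted 0.0021 and 0.0070). That r was -0.53 without rats 53 and 55, -0.31 within 6 h to 4 d and -0.50 within 9 to 14 d. The pair did not pass in code 3 (r = -0.63, rho = -0.35, adjusted permutation p = 0.0993 and 0.3710). It passed without the 6 rats (r = -0.74, rho = -0.58, adjusted permutation p = 0.0067 and 0.0486). With Myh7, Ldb3 gave r = 0.37 and rho = 0.41 (permutation p = 0.0834 and 0.0570, adjusted 0.1007 and 0.0712) and with Actn3 r = -0.32 (permutation p = 0.1361, adjusted 0.1520). Over all 35 relations, 14 passed in the 10 rats of code 3 and 10 in the 17 rats left without those of uncertain pairing, and r had the same sign as in all rats in 34 and 33 of them.

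**Figure D4:**
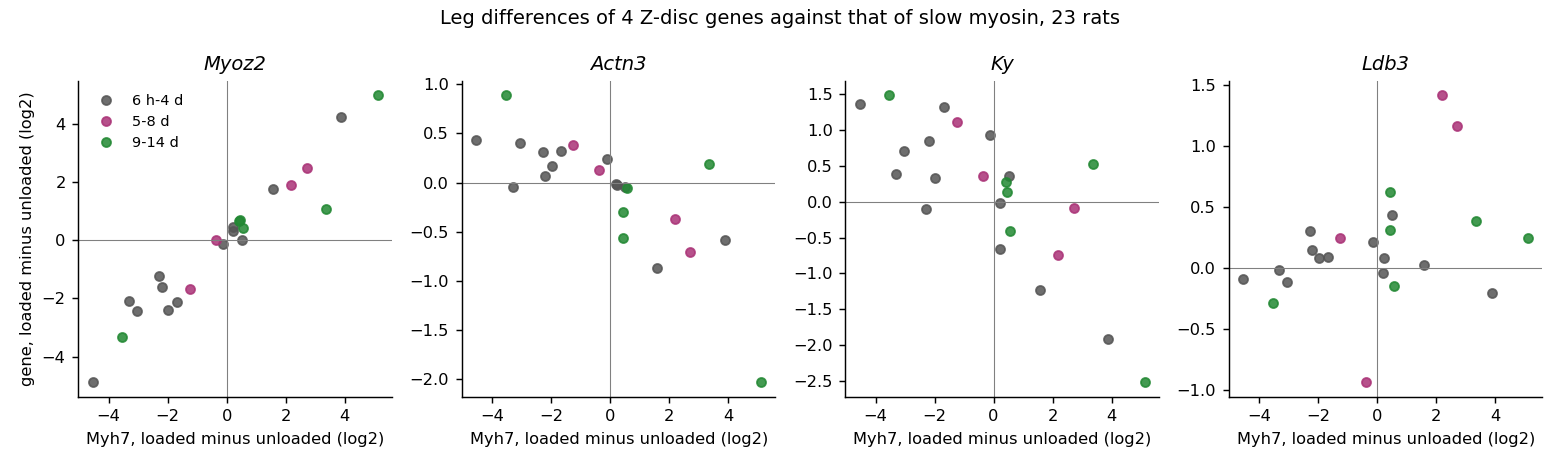
Loaded minus unloaded log2 value of Myh7 (x axis) against that of Myoz2, Actn3, Ky and Ldb3 (y axes), 1 point per rat, coloured by window. Myoz2 rises with Myh7 along a line (r = 0.96), Actn3 and Ky fall (r = -0.77 for both), and Ldb3 scatters (r = 0.37).

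Pairs of related genes were also set against each other. Taking Actn3 minus Actn2 in the unloaded legs of the shortest window as 0 (SD 0.55, n = 13), the loaded legs of that window stood at 0.14 ± 0.71. The same difference stood at -0.82 ± 0.20 (SD, n = 4) in unloaded and -1.10 ± 0.57 in loaded legs at 5 to 8 d. At 9 to 14 d it stood at -1.02 ± 0.92 (n = 6) and -1.57 ± 0.64. The mean of Actn3 minus Actn2 was thus lower in all 4 later groups, and single rats ran from -1.84 to 0.62 in unloaded legs of 9 to 14 d. Myoz2 minus Myh7, on the same footing, went in unloaded legs from 0 (SD 0.56) to 0.94 ± 0.24 at 5 to 8 d and 1.86 ± 1.02 at 9 to 14 d. In loaded legs it went from 0.20 ± 0.46 to 0.78 ± 0.48 and 1.54 ± 1.06. The calsarcins showed no common shift: Myoz1 minus Myoz2 stood at -0.49 ± 0.74 in unloaded legs at 5 to 8 d, ran from -2.02 to 0.42 in the loaded legs, and stood at 0.21 ± 1.98 and -0.78 ± 1.89 in unloaded and loaded legs at 9 to 14 d, against 0 (SD 1.75) in the unloaded legs of the shortest window. These ratios were chosen after their values were seen and carry no test.

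The genes nearest to each member over the 46 arrays were found by the root mean square difference of mean-centred log2 values, where 0 is an identical pattern. Nearest to Myoz2 were Tnnt1 (0.62), Tnnc1 (0.63) and Tnni1 (0.73), all slow troponins, against 1.70 for Myoz2 about its own mean. Actn3 and Myoz1 were each other's nearest members (0.31) and both were nearest to Ttc7b (0.37 and 0.23). Next for Actn3 were Agtpbp1 (0.38), which removes glutamates from tubulin tails, and Enpp2 (0.38). Next for Myoz1 were the glycolytic enzyme Gpi (0.25) and Tnk2 (0.25). Ldb3 was nearest to Hadh (0.45), an enzyme of fatty acid oxidation, Pkia (0.48), an inhibitor of protein kinase A, and Car14 (0.49), a carbonic anhydrase. Ky was nearest to Atp1b2 (0.64), a sodium pump subunit, Mstn (0.80), myostatin, and Fn3k (0.85). Nearest to Actn2 were Qki (0.22), Aifm1 (0.22) and Slmap (0.23), and nearest to Pdlim3 were Prmt5 (0.13), Irak1 (0.14) and Eif3c (0.14). Actn2 and Pdlim3 varied little themselves, by 0.34 and 0.33 about their means, so these distances say less.

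Of 33 other Z-disc and associated genes, 21 were measured. In unloaded legs at 9 to 14 d 3 were higher, 7 lower and 11 did not pass, with a median of -0.09 against 0.07 for all genes, of which 45.6% passed (28.7% higher, 16.9% lower). At 5 to 8 d 2 were higher, 8 lower and 11 did not pass, beside 35.9% of all genes. In loaded legs the counts were 4 higher, 5 lower and 12 not passed at 9 to 14 d, and 5, 6 and 10 at 5 to 8 d, beside 44.2% and 39.0%. Fhl3, a LIM-only protein, fell most, by 1.82 in unloaded (SE 0.30, adjusted p = 4.14e-05) and 1.89 in loaded legs (SE 0.26) at 9 to 14 d. Pdlim7, the PDZ-LIM protein enigma, fell by 1.05 and 1.17, and Myot, the actin-bundling myotilin, by 0.75 and 0.65. Ttn, titin, fell by 0.48 (adjusted p = 1.14e-04) and 0.21. Capza1, a subunit of the protein that caps actin filaments at the Z-disc, rose by 0.81 (adjusted p = 1.41e-04) and 0.69, and Smpx, a small protein of the muscle membrane and cytoskeleton, by 0.50 and 0.63. Des, the intermediate filament desmin that links neighbouring Z-discs, rose by 0.16 in unloaded legs (adjusted p = 0.0259), but differed by 0.01 after cyclic loess normalization (adjusted p = 0.9273). With the date code as a block Fhl3 differed by -0.94 in unloaded legs (adjusted p = 0.0531), Capza1 by 0.42 in loaded legs (adjusted p = 0.0864), Smpx by 0.49 (adjusted p = 0.0724) and Des by 0.09 (adjusted p = 0.3726) in unloaded legs at 9 to 14 d, none of which passed. Against loading 0 of the 21 passed over all rats, beside 2.90% of all genes, and 0 within any window.

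**Figure D5:**
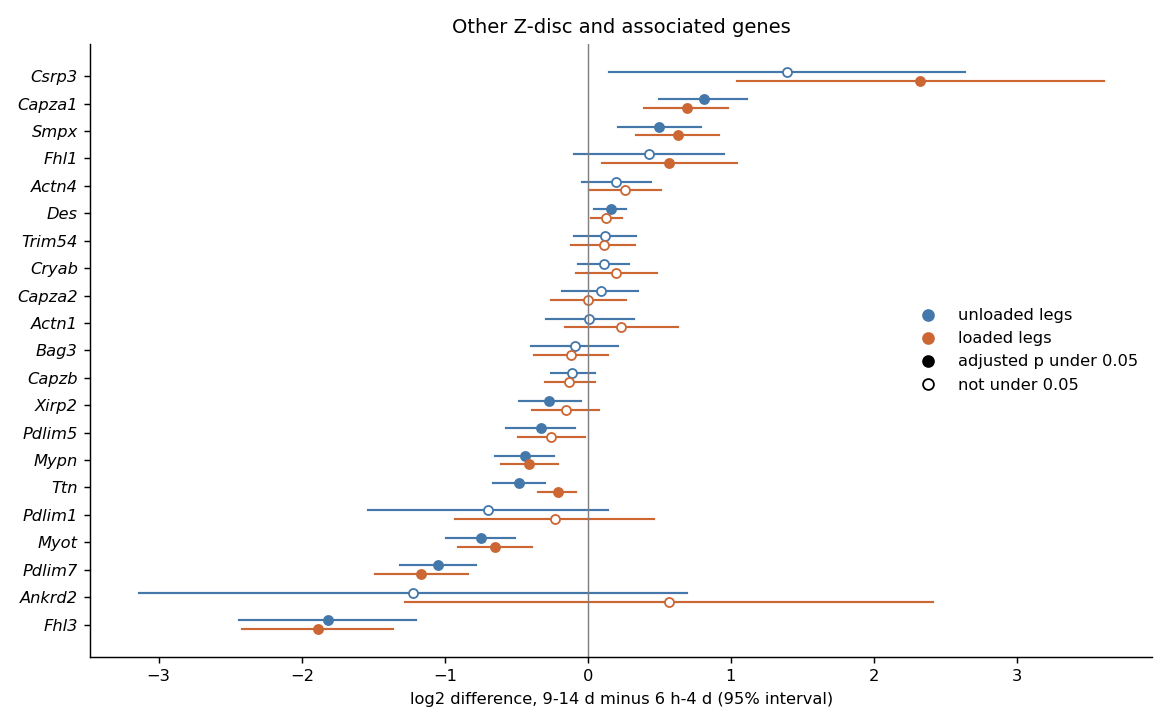
Log2 difference, 9 to 14 d minus 6 h to 4 d (x axis), of the 21 measured other Z-disc and associated genes (y axis) in unloaded (blue) and loaded (orange) legs. Lines are 95% intervals and filled points have an adjusted p under 0.05. Fhl3, Pdlim7 and Myot lie lowest among the filled points, and Capza1 and Smpx are above 0 in both legs.

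Calcineurin, the calcium-dependent phosphatase that the calsarcins hold at the Z-disc, was followed through 7 measured subunits and regulators of 8 listed. In unloaded legs at 9 to 14 d 1 was higher, 1 lower and 5 did not pass, beside 45.6% of all genes passing (28.7% higher, 16.9% lower). Rcan1, an inhibitor of calcineurin that is also its transcriptional target, rose by 1.36 in unloaded legs (SE 0.25, adjusted p = 1.41e-04) and by 1.73 in loaded legs (SE 0.30, adjusted p = 8.94e-05) at 9 to 14 d. At 5 to 8 d it rose by 1.98 and 2.21. Ppp3cb, a catalytic subunit, fell by 0.38 in unloaded legs (adjusted p = 0.0111) and 0.45 in loaded legs at 9 to 14 d. With the date code as a block Ppp3cb differed by -0.19 in each leg and did not pass (adjusted p = 0.3807 and 0.4467). With loading over all rats 1 of 7 passed, beside 2.90% of all genes. It was Nfatc3, a transcription factor that calcineurin activates. Nfatc3 fell by 0.17 in the loaded leg (SE 0.05, adjusted p = 0.0465, lower in 19 of 23 rats) and was named for being the single call. That call was lost in 19 of the 23 fits that left out a single rat, with differences of -0.20 to -0.15.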

How the data were processed

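The deposited table holds RMA log2 values of 26208 probe sets on 46 arrays, made by the authors, per the submitters' processing notes; their version is not given in the sources used here. The filter retained 14834 probe sets, those exceeding the array median on 4 or more arrays. The platform annotation gave 15088 probe sets 1 symbol. Each of the 9289 genes was read from its retained probe set of highest mean. The number of arrays limits the precision. The Z-disc members, gene lists and alternatives were chosen with earlier results of these data known. Other genes were named by rule: of the other Z-disc list up to 4 rises and 4 falls of the largest size past the threshold in unloaded legs at 9 to 14 d against 6 h to 4 d, up to 2 of the calcineurin and fibre lists, any past it between legs, and the 3 genes nearest to each member.

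Tests were two-sided limma models (version 3.58.1, under R 4.3.3; lmFit, then eBayes) with p-values adjusted over all 9289 genes by Benjamini-Hochberg at a threshold of 0.05. The models were also run on simulated data with independent genes, known pairs and no effect of the date code. That run does not measure how sure the calls made here are. Legs were compared within rats in a fit of 46 arrays with the rat as a block, windows in 23 unloaded and 23 loaded legs separately. Replicates are separate rats. Pairs of legs were inferred from consecutive label numbers within a window and date code. Deviations from the group means correlated above 0.1 in 21 of 23 pairs (median r = 0.60, lowest -0.35 in rat 27), and an unloaded leg was closest to its own loaded leg in 15 rats, a loaded leg to its own unloaded leg in 14. The date code is a number ending the sample descriptions, of unstated meaning. Relations between leg differences used 100000 permutations (SciPy 1.17.1) and adjustment over 35 relations. Fold values are linear ratios of the deposited log2 scale. Alternatives were no block, array quality weights, cyclic loess, no filter on dim probe sets, the mean of probe sets, the date code as a block or code 3 alone, separate fits, and leaving out rats.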

Additional observations from a re-analysis of the deposited data

Results flagged for a closer look

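Among 42 groups of 4 to 10 rats, 3 held a value far from the rest of its group, where chance flags about 5% of groups. Myoz2 in the unloaded leg of rat 51 was at 6.39, while the other 5 rats of 9 to 14 d lay between 9.42 and 11.06. In loaded legs of that window rat 47 had Myoz2 at 6.70, and the others lay between 10.11 and 11.47. The Actn2 leg difference of rat 41 at 5 to 8 d was -0.07, against 0.20 to 0.21 in the other 3 rats, a gap that is small on the log2 scale.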

How the results depend on the processing

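The date code changed most. With it as a block the members called numbered 3 in unloaded legs at 5 to 8 d (main 5), 3 in loaded legs at 9 to 14 d (main 5) and 2 in loaded legs at 5 to 8 d (main 5). In code 3 alone they numbered 1 in unloaded and 2 in loaded legs at 9 to 14 d and 0 in both legs at 5 to 8 d. All genes called fell with them, in unloaded legs at 9 to 14 d from 4232 to 2177 with the block and 904 in code 3, at 5 to 8 d from 3337 to 757 and 16, and in loaded legs from 4110 to 1862 and 453 and from 3620 to 850 and 0. Code 3 alone has fewer rats. Array quality weights gave 1 member, Ldb3, for loading over all rats, for loading at 5 to 8 d and for the difference in the effect of loading between 5 to 8 d and 6 h to 4 d, and 2 members, Ldb3 and Ky, between 9 to 14 d and 5 to 8 d in unloaded legs. The genes called among all went to 876, 1182, 526 and 2214, from 269, 0, 0 and 21. The cause was not tested. Leaving out single rats gave 0 to 1 members for loading at 5 to 8 d and 0 to 1 between the later windows in unloaded legs, each time Ldb3 without rat 43, and changed no other count of members by over 1.5 times. For loading over all rats, 3 genes were called without the rat as a block, 163 without the filter, 122 without rats 35 and 37, 438 without rats 21 and 27, 103 without rat 49 and 1 in code 3, and 0 members under each of these. For relations between leg differences 10 passed without the 6 rats of uncertain pairing and 14 in code 3, of 26, both chosen after seeing the data and with fewer rats. Among the differences recomputed, those of the 7 members in all comparisons, of the other named list genes against 6 h to 4 d and of Nfatc3 for loading, no called one changed sign.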
